A study of Drosophila melanogaster with 2 samples.

Results

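The nuclear respiratory chain genes are the genes in the cell nucleus that encode subunits of the mitochondrial respiratory chain, and their kay peaks are described here. They were chosen by symbol, as protein-coding genes whose name starts with ND-, Sdh, UQCR-, Cyt-c, COX or ATPsyn. The rule found 92 of the 13945 protein-coding genes annotated on the arms 2L, 2R, 3L, 3R, 4 and X. Of the 92, 40 belonged to complex I, 8 to complex II, 11 to complex III, 16 to complex IV, 15 to complex V, and 2 encoded cytochrome c itself. The rule picks genes by symbol and uses no peak values, but it was set with earlier results of these data known. The labelled complex was taken from the symbol, so the complex II group also holds Sdhaf3, an assembly factor of that complex.

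The respiratory chain passes electrons from NADH, at complex I, and from succinate, at complex II, through complex III and the small carrier cytochrome c to oxygen at complex IV. Complexes I, III and IV pump protons across the inner mitochondrial membrane, and complex V, the ATP synthase, uses the gradient to make ATP. Subunits come from both the nuclear and the mitochondrial genome, and flight muscle is known as a fly tissue very rich in them. In flies many of the nuclear genes have duplicate copies, often with an L at the end of the symbol, and a number of these copies are known for expression in the testis.

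The data are ChIP-seq, the sequencing of DNA pulled down with a protein, here with an anti-GFP antibody from whole adult male Drosophila melanogaster of the strain kay-GFP. This transgenic line carries the fly Fos protein kay with GFP at its C-terminal end, and the labels give the age of the flies as unknown. kay pairs with Jra, the fly Jun, to form the transcription factor AP-1, which acts downstream of JNK signalling. Both libraries, labelled biological replicates 1 and 3, belong to 1 group, so no contrast of conditions exists, and tissues cannot be told apart in whole flies. On the genome build dm6 the replicate 1 list held 2060 peaks, the replicate 3 list 13835, the list called on both pooled 4350, and the list of peaks kept by the authors' reproducibility step (IDR, irreproducible discovery rate), the optimal IDR list, 199. Of these 2024, 13804, 4317 and 165 were nuclear, and ranks below are among those, with rank 1 the highest authors' signal. The long lists reach far into weak peaks, and only 149 nuclear peaks in the replicate 1 list, 447 in the replicate 3 list and 294 in the pooled list had q-values up to 0.05. Read depth is unknown, and no control library was analysed here.

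The sequences under the highest peak among the chain genes and under 3 lower ones are shown first, because the motif counts further on refer to what such windows hold. The 3 lower ones are examples and do not follow the order of ranks. UQCR-6.4 and SdhD, at ranks 301 and 899 in the replicate 3 list, are not shown. All are on dm6, from the RefSeq Release 6 genome, written 5′ to 3′. The capital in the Cyt-c-p and ND-39 lines marks the summit base, the position of the highest signal. The capitals in the ATPsynbeta and Cyt-c1 lines mark a match to the nuclear respiratory gene element, a sequence known from fly respiratory chain genes and searched here as TTACATAA, TTATGTAA, TTACGTAA or TTATATAA on both strands. Such a match is not typical of the windows, as it lay within 100 bp of 6 of the 36 replicate 3 summits of chain genes, or 16.7%.
Cyt-c-p, chr2L:16720744-16720944, plus strand: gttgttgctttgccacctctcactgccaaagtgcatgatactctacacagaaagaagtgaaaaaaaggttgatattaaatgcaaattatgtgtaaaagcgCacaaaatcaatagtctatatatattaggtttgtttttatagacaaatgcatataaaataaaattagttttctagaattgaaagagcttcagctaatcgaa
ND-39, chr3L:20492215-20492397, plus strand: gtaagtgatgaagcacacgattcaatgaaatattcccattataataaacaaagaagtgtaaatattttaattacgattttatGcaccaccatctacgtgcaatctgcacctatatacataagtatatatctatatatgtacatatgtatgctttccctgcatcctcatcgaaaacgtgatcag
ATPsynbeta, chr4:1031954-1032134, plus strand: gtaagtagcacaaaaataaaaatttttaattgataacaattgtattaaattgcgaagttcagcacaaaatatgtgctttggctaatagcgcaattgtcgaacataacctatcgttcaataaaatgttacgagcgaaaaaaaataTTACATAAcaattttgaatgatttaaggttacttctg
Cyt-c1, chr3L:5359710-5359910, plus strand: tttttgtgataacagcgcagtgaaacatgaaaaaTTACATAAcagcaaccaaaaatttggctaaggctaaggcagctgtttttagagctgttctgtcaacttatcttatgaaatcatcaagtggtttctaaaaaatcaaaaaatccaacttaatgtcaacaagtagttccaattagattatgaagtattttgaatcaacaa

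The same element was also found beyond the peaks, within introns of chain genes. The next lines show 1 such site from each of the 5 complexes, to let the shared letters be seen, on the strand of the gene, with the element in capitals and 20 bases to either side.
ND-23, complex I, chr3R:15836884-15836931, minus strand: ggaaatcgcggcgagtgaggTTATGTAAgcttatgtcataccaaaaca
SdhD, complex II, chr3R:23760369-23760416, minus strand: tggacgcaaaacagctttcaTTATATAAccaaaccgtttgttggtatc
Cyt-c1, complex III, chr3L:5360596-5360643, plus strand: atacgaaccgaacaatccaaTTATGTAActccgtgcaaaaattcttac
COX5B, complex IV, chr2L:6558159-6558206, plus strand: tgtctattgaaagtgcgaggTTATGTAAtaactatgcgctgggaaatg
ATPsynB, complex V, chr3L:9730209-9730256, plus strand: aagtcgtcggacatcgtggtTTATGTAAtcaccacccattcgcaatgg

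The share of respiratory chain genes with a kay summit was not set apart from that of other protein-coding genes, and 1 gene, Cyt-c-p, led the others by the rank of its peak. A summit within 1 kb of an annotated start was counted as a summit at that gene. In the replicate 3 list 21 of the 92 genes had one, or 22.8% (95% Wilson interval 15.4 to 32.4), against 27.3% of the 13853 other protein-coding genes. The replicate 1 list gave 5 genes, or 5.43% (2.34 to 12.1), against 6.64% of the others. In the pooled list it was 8 genes, or 8.70% (4.47 to 16.2), against 11.0%, and in the optimal IDR list 1 gene, or 1.09% (0.192 to 5.90), against 0.895%. In each of these 4 lists the share of the other genes lay inside the interval of the chain genes. The intervals cover counting error only, and no test was made, since genes are not replicates of a condition.

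Stricter peaks left few chain genes. At a q-value of at most 0.05 the replicate 1 list kept 1 gene, or 1.09%, against 0.823% of the other genes. At the same q-value the replicate 3 list kept 2, Cyt-c-p and UQCR-6.4, or 2.17% against 2.60%, and the pooled list kept 1, or 1.09% against 1.63%. The 2060 highest peaks of the replicate 3 list, as many as the whole replicate 1 list, gave 6 genes, or 6.52% (3.02 to 13.5), against 8.69%. A summit in both replicate lists was found at 4 genes, Cyt-c-p, ND-15, ND-39 and COX7C, or 4.35% against 6.10%. In all 22 genes had a summit in at least 1 list and 70 had none. This count was not made for the other protein-coding genes and is not read as a result about the chain genes.

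**Figure D1:**
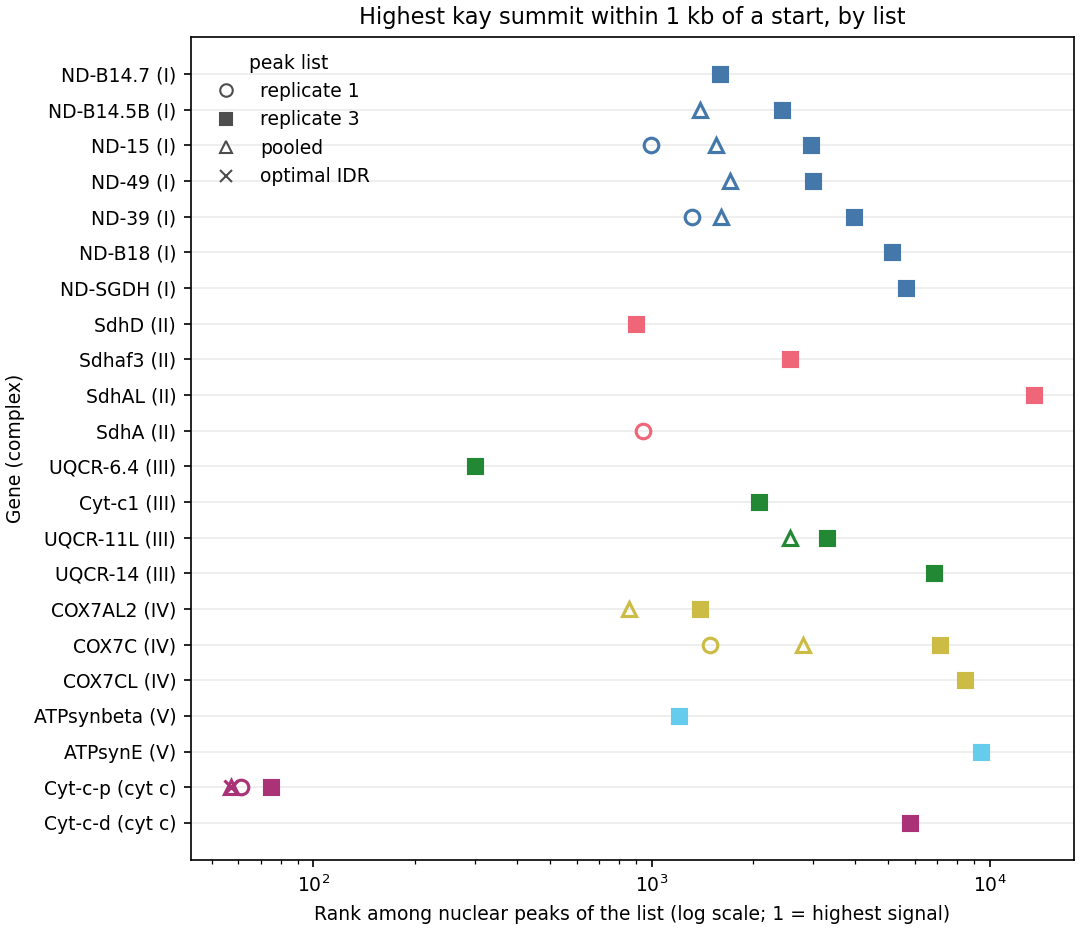
Rank of the highest kay summit within 1 kb of a start (x axis, log scale, rank 1 is the highest signal among nuclear peaks of that list) for each of the 22 respiratory chain genes with a summit (y axis, complex in brackets). The mark shows the peak list and the colour the complex. The points of Cyt-c-p lie between ranks 57 and 75, and the next gene, UQCR-6.4, is at rank 301 in the replicate 3 list alone.

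Cyt-c-p encodes the cytochrome c of most fly tissues, the electron carrier between complexes III and IV, which also has a known role in cell death in other animals. It was the only chain gene in the optimal IDR list. The peak there spanned chr2L:16720634-16721053, with rank 57 of 165, a signal of 171 and a q-value of 0.00315. The gene (FBgn0284248, plus strand, chr2L:16719932-16722644) has starts at 16719932 and 16722011, and the summit lay 912 bp downstream of the first, inside the intron that follows the first exon, which ends at 16719976. In the replicate 1 list the summit was at +913 bp with rank 61 of 2024, a signal of 76.6 and a q-value of 0.00392. For the replicate 3 list it was at +943 bp with rank 75 of 13804, a signal of 95.4 and a q-value of 0.00243. The summits of the replicates were 30 bp apart, and in each list this peak was the highest of any chain gene. Signals of different lists are on different scales and are not compared.

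The replicate 3 list held 3 further summits within 1 kb of a Cyt-c-p start, at ranks 2870, 4295 and 12553, and the pooled list 1 more, at rank 2373. The neighbouring Cyt-c-d, the second cytochrome c gene, known for its role in the testis, had a summit in the replicate 3 list alone. That summit had rank 5808, a signal of 20.2 and a q-value of 0.666, lay 594 bp upstream of the start and fell in an intron of CG31808. The 2 adjacent cytochrome c genes were thus far apart in rank within the replicate 3 list.

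**Figure D2:**
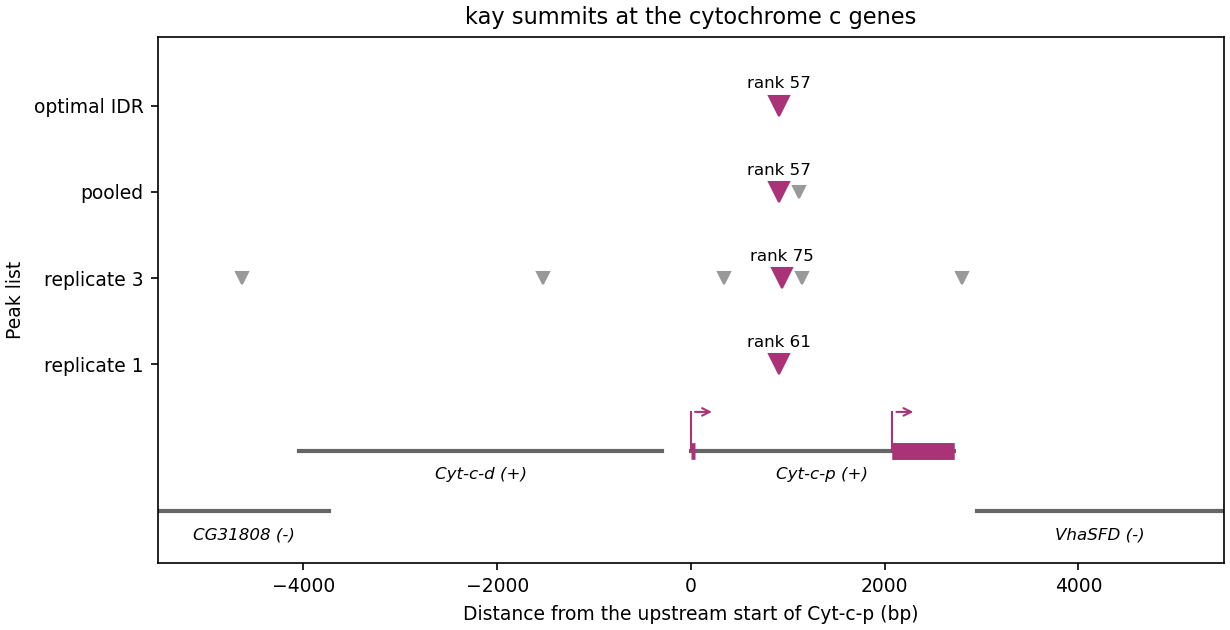
Summits of the 4 dm6 lists (triangles, 1 line per list) around the cytochrome c genes, by distance in bp from the upstream start of Cyt-c-p (x axis), with gene bodies as lines, Cyt-c-p exons as boxes and Cyt-c-p starts as arrows. The coloured triangle is the highest summit within 1 kb of a Cyt-c-p start, at +912, +913 or +943 bp in the 4 lists; grey triangles are other summits.

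Of the 40 complex I genes 7 had a summit in the replicate 3 list, or 17.5% (8.75 to 31.9), in the replicate 1 list 2 and in the pooled list 4. The highest in the replicate 3 list was at ND-B14.7, an accessory subunit, with rank 1588, a signal of 33.7 and a q-value of 0.279, at −237 bp, in the 3′ UTR of the neighbouring RIC-3. ND-B14.5B, another accessory subunit, had rank 2423 with a signal of 28.7 and a q-value of 0.387, 254 bp upstream and inside the 3′ UTR of Mad, and rank 1390 in the pooled list. Both genes lacked a summit in the replicate 1 list.

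ND-15 and ND-39, both accessory subunits, were the complex I genes with a summit in each replicate. At ND-15 the replicate 1 summit was at +343 bp with rank 997, a signal of 26.0 and a q-value of 0.529. The highest ND-15 summit of the replicate 3 list was at −423 bp with rank 2965, a signal of 26.5 and a q-value of 0.449, while a lower one, at rank 5082, lay 76 bp from the replicate 1 summit. At ND-39 the replicate 1 summit was at +183 bp with rank 1318, a signal of 23.3 and a q-value of 0.674. The ND-39 summit of replicate 3 was 32 bp away, at +215 bp, with rank 3978, a signal of 23.7 and a q-value of 0.530. That position is in an intron of ND-39 and also in an intron of ZnT77C, a zinc transporter gene, so a summit there cannot be given to 1 of them.

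ND-49, a core subunit of complex I, had rank 3008 in the replicate 3 list, with a signal of 26.4 and a q-value of 0.453, and rank 1709 in the pooled list. Its summit was 277 bp upstream, but it lay in the 5′ UTR of Ephrin, whose start was nearer. ND-B18 and ND-SGDH, accessory subunits, had lower peaks, at ranks 5123 and 5652. The ND-SGDH summit, at −501 bp, lay in the 5′ UTR of RhoGAP68F, whose start was nearer. The 7 nuclear core subunits ND-75, ND-51, ND-49, ND-30, ND-24, ND-23 and ND-20 bind the flavin and iron-sulfur centres or take part in reducing the quinone. Of these 7, a list chosen after the values were seen, ND-49 had a summit in the replicate 3 list and the other 6 had none, beside 27.3% of other protein-coding genes. ND-49 lies on chromosome 4, where 82.1% of other protein-coding genes had one, so the count is not read as a result about the core subunits.

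Complex II oxidises succinate and is shared with the TCA cycle. Of its 8 genes 3 had a summit in the replicate 3 list, or 37.5% (13.7 to 69.4). SdhD, a membrane anchor subunit, had the highest, with rank 899, a signal of 41.6 and a q-value of 0.154, at −188 bp, in the 3′ UTR of udt. Sdhaf3 had rank 2557 with a signal of 28.1 and a q-value of 0.405, 156 bp upstream. SdhAL, the duplicate copy of SdhA, was near the end of the list at rank 13470.

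SdhA, the flavoprotein that oxidises succinate, was the only gene with a summit in the replicate 1 list and none in the replicate 3 list within 1 kb. Its replicate 1 summit was at −740 bp with rank 941, a signal of 26.6 and a q-value of 0.495, and lay in the 5′ UTR of cer, a cysteine protease inhibitor gene whose start was nearest. The replicate 3 peak that overlapped it, at rank 1447, had its summit 403 bp away and outside the 1 kb window. The replicate 3 summit nearest to the SdhA start was a different one, at 1044 bp.

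Complex III had 4 of 11 genes with a summit in the replicate 3 list, or 36.4% (15.2 to 64.6), none in the replicate 1 list and 1 in the pooled list. UQCR-6.4, a small accessory subunit, had the second highest peak of the chain genes in the replicate 3 list, with rank 301, a signal of 59.9 and a q-value of 0.0316. Its summit was 651 bp upstream of UQCR-6.4 but 27 bp from a start of Rab4, an endosomal GTPase gene. Cyt-c1, the cytochrome c1 that hands electrons to cytochrome c, had rank 2077 with a signal of 30.4 and a q-value of 0.341, 401 bp upstream, and shares this upstream stretch with the kinesin gene Klp64D. UQCR-11L, a duplicate copy, had rank 3302 in the replicate 3 list and 2560 in the pooled list, and UQCR-14 had rank 6827 in the replicate 3 list.

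Complex IV had 3 of 16 genes with a summit in the replicate 3 list, or 18.8% (6.59 to 43.0), 1 in the replicate 1 list and 2 in the pooled list. COX7AL2, a duplicate copy, led with rank 1394, a signal of 35.4 and a q-value of 0.240 in the replicate 3 list, 84 bp upstream, and had rank 856 at the same base in the pooled list. COX7C, a small accessory subunit, had rank 1483 at +544 bp in the replicate 1 list, with a signal of 22.3 and a q-value of 0.741. The highest COX7C summit of the replicate 3 list was at −284 bp with rank 7115, a signal of 18.5 and a q-value of 0.741. The nearest pair of COX7C summits from the replicates was 234 bp apart. The replicate 1 summit lay in an intron of COX7C but nearest to a start of the neighbouring oys. The replicate 3 summit at rank 7115 lay in an intron of oys, so neither of these can be given to COX7C alone. The replicate 3 summit of the nearest pair, at rank 8451 with a q-value of 0.803, lay in the 5′ UTR of COX7C, nearest to a COX7C start. COX7CL lies beside COX7C and shared with it a summit at rank 8467 of the replicate 3 list.

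Complex V had 2 of 15 genes with a summit in the replicate 3 list, or 13.3% (3.74 to 37.9), and none in the other 3 lists (interval 0 to 20.4% in each). ATPsynbeta, the catalytic subunit of the ATP synthase, had rank 1203 with a signal of 37.4 and a q-value of 0.211, 170 bp downstream of a start and inside its own intron. ATPsynE, a small membrane subunit, had rank 9395, and the nearest start to its summit was that of spn-B. The intervals of all 5 complexes in the replicate 3 list overlapped each other and contained the 27.3% of the other protein-coding genes. In the replicate 1, pooled and optimal IDR lists the share of the other genes was 6.64%, 11.0% and 0.895%. The interval of each complex contained that share too, so the low counts there are not read as a trait of any complex.

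**Figure D3:**
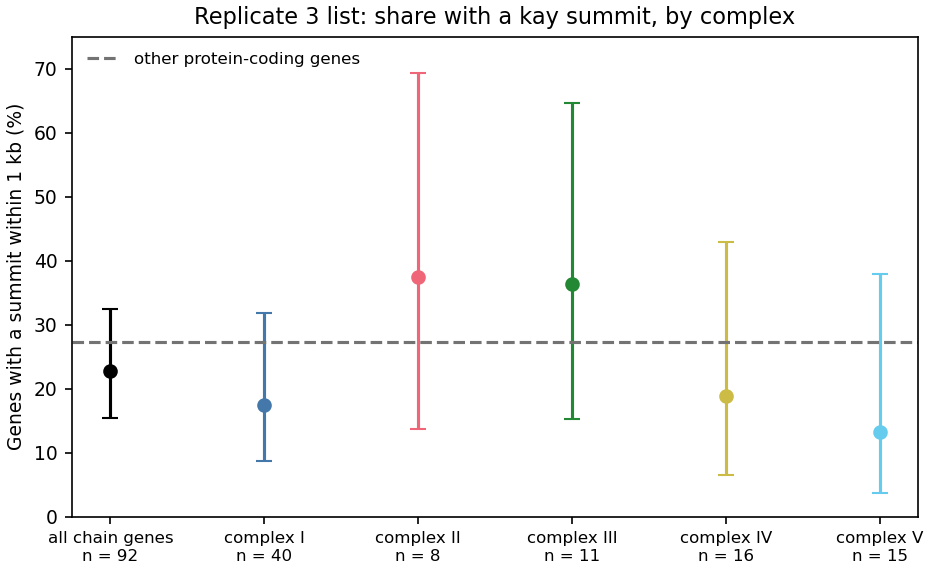
Share of genes with a kay summit within 1 kb of a start in the replicate 3 list (y axis, percent) for all 92 respiratory chain genes and for each complex. Points are shares, bars 95% Wilson intervals (counting error only), and the dashed line is the 27.3% of other protein-coding genes, which every interval contains.

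The duplicate copies, 25 genes with the L-type symbol and Cyt-c-d, were compared with the other 66 genes. Of the 26 copies 5 had a replicate 3 summit, or 19.2% (8.51 to 37.9), against 16 of the 66, or 24.2% (15.5 to 35.8). In the replicate 1 list none of the 26 copies had one (interval 0 to 12.9%), against 5 of the 66, or 7.58%, and 6.64% of the other protein-coding genes, a share inside the copies' interval. Of the 26 pairs of a copy with its original, both had a replicate 3 summit in 2, the copy alone in 3, the original alone in 6 and neither in 15. A pair can share an original with another pair. The 2 pairs with both were the adjacent cytochrome c genes and COX7C with COX7CL.

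The positions and ranks of the chain genes' peaks were set beside those of other genes. Over the highest summit of each of the 21 genes in the replicate 3 list, the median distance to a start was 284 bp, against 315 bp at other protein-coding genes. Of the 21, 14 lay within 500 bp, or 66.7% against 67.5%, and 15 lay upstream, or 71.4% against 69.0%. The median rank was 3008, against 4014 at the others. The order was the reverse in the replicate 1 list, at 997 against 798, and in the pooled list, at 1574 against 1438. In the optimal IDR list the 1 gene had rank 57, against a median of 81.5. In the replicate 1 list 4 of the 5 lay downstream of the start, and 20.0% upstream, against 70.1% at the others. Their median distance in that list was 544 bp, against 270 bp, and 40.0% lay within 500 bp, against 71.2%. These values rest on 5 genes, with the COX7C and SdhA summits nearest to starts of oys and cer. The side also depends on the start taken: COX7C stood at +544 bp there and at −524 bp in the pooled list. They are not read as a trait of the chain genes. The 36 distinct replicate 3 summits within 1 kb of a chain gene start comprised 10 in an intron of the chain gene, 1 in its 5′ UTR, 2 in its 3′ UTR, 12 between genes and 11 in another gene. The same breakdown was not made for summits at other genes, so these counts are not read as a trait of the chain genes.

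The 71 chain genes with none in the replicate 3 list had their nearest summit 1016 bp (UQCR-Q) to 44943 bp (ND-ACP) away, with a median of 9148 bp, and 32 were over 10 kb away. Over all 92 genes the median distance to the nearest replicate 3 summit was 5961 bp, against 4431 bp for the other protein-coding genes. In the replicate 1 list it was 32507 bp, against 31331 bp, and in the pooled list 22918 bp, against 18382 bp. Just inside the 1 kb window was ND-B18, at 971 bp in the replicate 3 list, and just outside were UQCR-Q at 1016, SdhA at 1044, ND-AGGG at 1115 and ND-23 at 1164 bp.

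**Figure D4:**
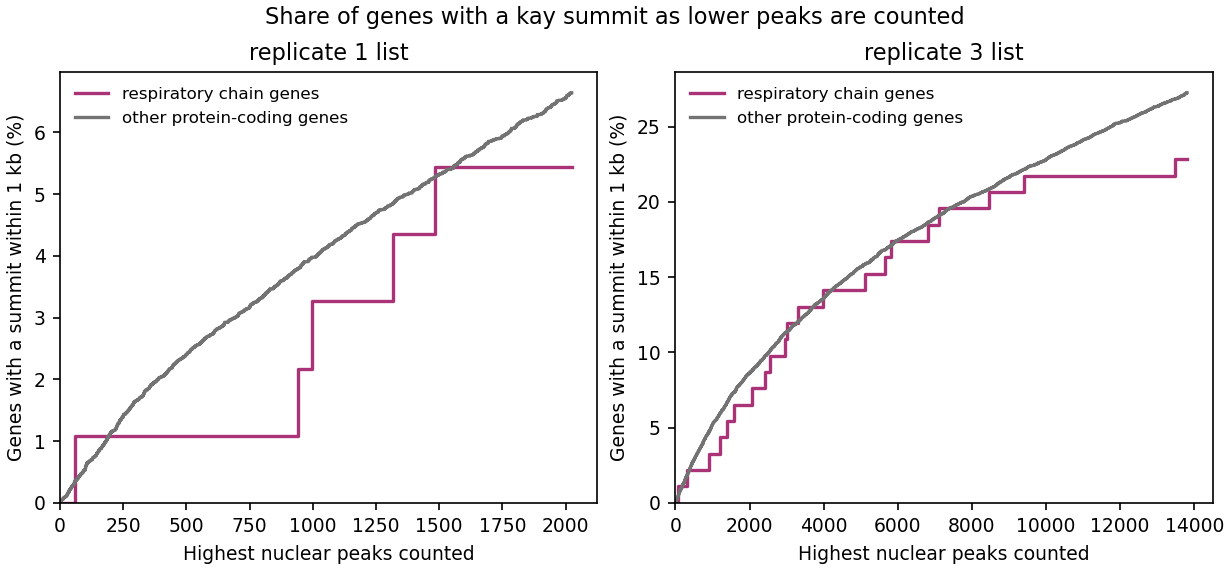
Share of genes with a kay summit within 1 kb of a start (y axis, percent) as more of the highest nuclear peaks are counted (x axis), for the 92 respiratory chain genes and the 13853 other protein-coding genes, with replicate 1 in the left panel and replicate 3 in the right. The lines end at 5.43% of chain genes and 6.64% of other genes in replicate 1, and at 22.8% and 27.3% in replicate 3.

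The shares differed between chromosome arms. Both chain genes on chromosome 4, ATPsynbeta and ND-49, had a replicate 3 summit, and so did 82.1% of the 78 other protein-coding genes of that chromosome. Without chromosome 4 the chain genes stood at 19 of 90, or 21.1%, against 26.9%. On the single male X it was 2 of 13, or 15.4% against 19.9%. On 3R it was 3 of 21, or 14.3% against 27.0%, on 3L 4 of 21, or 19.0% against 30.8%, on 2L 5 of 18, or 27.8% against 29.1%, and on 2R 5 of 17, or 29.4% against 26.6%. Genes with more starts also had summits more often: 16.4% of the 55 chain genes with 1 start had one, against 20.9% of others, and 31.2% of the 32 with 2 starts, against 37.2%. With the other genes weighted to the same classes of starts, their share in the replicate 3 list was 28.8%.

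Many chain genes also sit close to another gene. Another gene started within 1 kb of 53 of the 92, or 57.6%, against 42.8% of the other protein-coding genes. When a summit was counted only for the gene whose start was nearest, 17 chain genes kept one in the replicate 3 list, or 18.5% against 23.4%. By the same count 3 kept one in the replicate 1 list, or 3.26% against 5.66%, 7 in the pooled list, or 7.61% against 9.44%, and 1 in the optimal IDR list, or 1.09% against 0.693%. Whether a summit between 2 starts acts on either gene was not tested.

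Other mitochondrial gene lists were set beside the chain genes. Of 6 chain subunits that the symbols miss, blw, the alpha subunit of the ATP synthase, levy and cype of complex IV, and RFeSP and ox of complex III had no summit within 1 kb in any of the 4 lists. The last of the 6, sun, the epsilon subunit of the ATP synthase, had rank 5243 in the replicate 3 list, with a signal of 21.1 and a q-value of 0.630, at +752 bp in its intron. Of 16 genes for assembly factors and cofactors 4 had a replicate 3 summit, the highest at Bcs1, a complex III assembly factor, with rank 1016. Of 9 carrier genes 4 did, where sesB and Ant2, the ADP/ATP translocases, shared 1 summit at rank 1464. Ant2 also had a summit at −394 bp in the replicate 1 list, with rank 419, a signal of 36.4 and a q-value of 0.181. In the pooled list it had rank 1359.

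Of 13 genes that maintain or express the mitochondrial genome 3 had a replicate 3 summit. Lon, the mitochondrial matrix protease, was the highest of these, with rank 62, a signal of 98.8 and a q-value of 0.00243, 99 bp upstream, but had no summit within 1 kb in the replicate 1, pooled or optimal IDR list. Of the 18 genes on the TCA cycle list 6 did, or 33.3%. This list was broad: it held Idh, an NADP-dependent isocitrate dehydrogenase, beside Idh3a, Idh3b and Idh3g of the cycle itself, and the cytosolic Mdh1 beside Mdh2. Idh and Mdh1 are among the 6, so the share is not one of the cycle's own enzymes alone. Idh had rank 140 in the replicate 3 list, with a signal of 77.1 and a q-value of 0.00243, and rank 464 in the replicate 1 list. Of 73 mitochondrial ribosomal protein genes 19 did, or 26.0%, and mRpL41 was the only gene of all these lists beyond Cyt-c-p in the optimal IDR list, with rank 41 and a signal of 194. Of 5 regulators of chain genes 2 had a replicate 3 summit, Ets97D and ERR, at ranks 11853 and 4884, with q-values of 0.910 and 0.605. The ERR summit, at −196 bp, lay in the 5′ UTR of Atg18a. Each list is compared with the 27.3% of protein-coding genes as a count only.

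The AP-1 site, TGACTCA or TGAGTCA on both strands, was in the window from 250 bp before to 50 bp after a start in 6 chain genes, or 6.52% against 3.41% of the others, and within 500 bp to either side it was in 10.9% against 9.71%. The 6 in the shorter window were ND-51L2, ND-B14.5A, ND-B14.5AL, ND-B16.6, ND-MLRQ and UQCR-14L, and none of them had a replicate 3 summit, against 45.7% of the 473 other genes with such a site. Of these 6, 3 were duplicate copies. In the wider window COX7AL2 and ND-SGDH held a site and had a replicate 3 summit, with a site 358 and 111 bp from it. The ND-SGDH summit lay in the 5′ UTR of the neighbouring RhoGAP68F, whose start was nearer. Within 100 bp of the 36 replicate 3 summits at chain genes no AP-1 site was found, against 4.17% of the summits at other protein-coding genes. In the optimal IDR list 24.0% of the 100 summits at other genes held the site, and the Cyt-c-p summit did not. The exception in the replicate 1 list was the SdhA summit, in the 5′ UTR of cer, with an AP-1 site 25 bp away.

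The nuclear respiratory gene element was found at a larger share of chain genes than of other genes, with intervals that did not overlap in the wider window. This sequence was already known from fly respiratory chain genes. A larger share there thus follows at least in part from the choice of motif and is no independent finding. In the window from 250 bp before to 50 bp after a start the element was in 12 chain genes, or 13.0% against 6.36%. Within 500 bp to either side it was in 55 of 92, or 59.8% (49.6 to 69.2), against 17.2% (16.6 to 17.8) of the others. It lay on the downstream side in 56.5% of chain genes against 7.28%, and on the upstream side in 18.5% against 11.6%. Among the chain genes it was in 3 of the 26 duplicate copies, or 11.5%, and in 52 of the other 66, or 78.8% (67.5 to 86.9). By complex the element was in 62.5% of complex I genes, 4 of the 8 of complex II, 45.5% of complex III, 8 of the 16 of complex IV and 73.3% of complex V. All 6 chain subunits missed by the symbols held it, as did 66.7% of the genes on the TCA cycle list and 30.1% of the mitochondrial ribosomal protein genes.

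The nearest element was a median of 209 bp from a start. TTACATAA or its reverse complement TTATGTAA was in 39.1% of chain genes against 8.71% of others, TTACGTAA in 16.3% against 1.77%, and TTATATAA in 16.3% against 8.17%. The sites printed above for ND-23, SdhD, Cyt-c1, COX5B and ATPsynB lie 209, 207, 409, 383 and 234 bp downstream of a start, each in the gene's own intron.

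The element and the kay summits were compared gene by gene. Of the 55 chain genes with the element within 500 bp, 15 had a replicate 3 summit, or 27.3%, against 36.2% of other genes with the element. Of the 37 without it 6 did, or 16.2%, against 25.4%. Both the element and a summit were more frequent at chain genes with 2 starts than at those with 1. With 1 start 45.5% held the element and 16.4% had a replicate 3 summit, and with 2 starts 81.2% and 31.2%. At the 5 chain genes with 3 or more starts it was 80.0% and 40.0%. With the whole match required to lie within 100 bp of the summit, the element was found at 6 of the 36 replicate 3 summits of chain genes, or 16.7%, against 3.79% of those at other genes. Beyond these 6, the centre of a match lay 98 bp from a Cyt-c-p summit and 99 bp from an ND-B14.7 summit. The element was near a start in 59.8% of chain genes against 17.2% of others, within 500 bp. No share was taken at chain gene positions without a summit. Whether the element and the summits are linked was not tested. A match is a string in the sequence and no measure of binding.

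**Figure D5:**
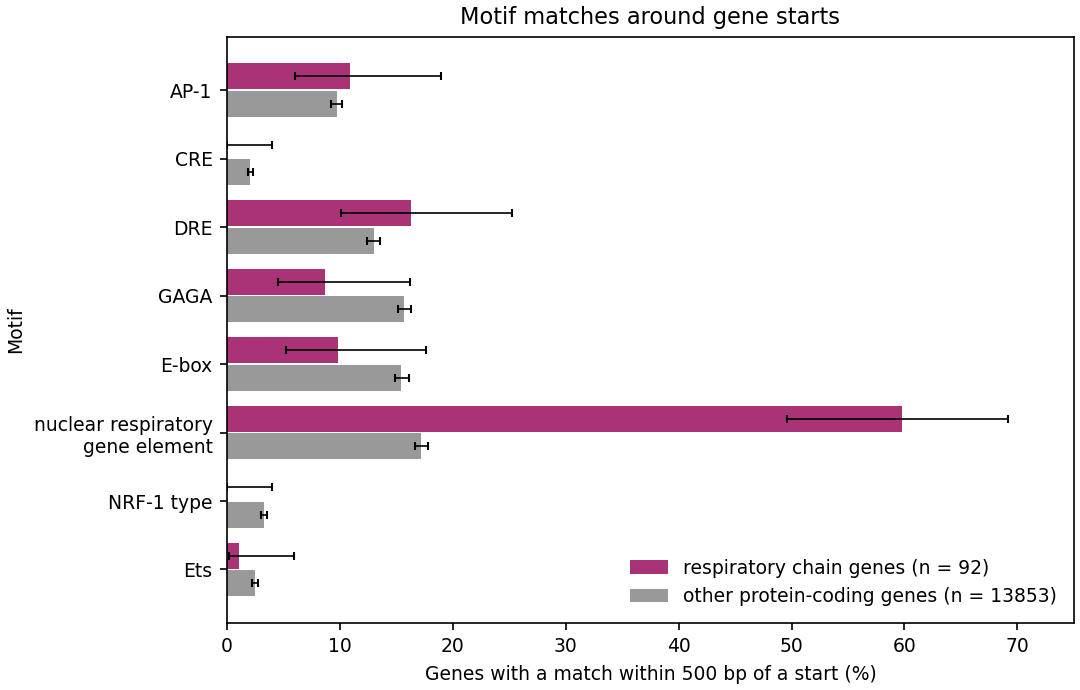
Share of genes with a match to each motif (y axis) within 500 bp of a start (x axis, percent), for respiratory chain genes (coloured bars) and other protein-coding genes (grey bars), with 95% Wilson intervals. The nuclear respiratory gene element, a sequence already known from fly respiratory chain genes, stands at 59.8% of chain genes and 17.2% of other genes. AP-1 stands at 10.9% and 9.71%.

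The DRE, TATCGATA, was in the shorter window of 13 chain genes, or 14.1% against 10.1%, and 5 of these 13 had a replicate 3 summit, or 38.5% against 30.2% of other genes with a DRE. GAGAGAG was in 2, or 2.17% against 9.12%, and within 500 bp to either side in 8.70% against 15.7%. The E-box CACGTG was in 5 in the shorter window, or 5.43% against 5.30%. TGACGTCA, GCATGCGC and CCGGAAGT, the CRE, NRF-1 type and Ets motifs, were in none of the 92 in that window, against 0.729%, 1.47% and 0.455% of the others.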

How the data were processed

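ChIP-seq peak lists of 2 biological replicates of 1 group were used. Each narrowPeak list gives the authors' peak signal per peak, whose scale differs between lists, the deposited −log10 q-value, turned here into q, and the deposited summit offset from the peak start, a measurement of another kind in bp. Per the deposited listing, the authors made a replicate's list from its alignments with 1 control file. Aligner, peak caller and IDR threshold were not given in the sources used here. Depth is unknown. The labels give sonication to 200 to 800 bp. The dm3 lists were not analysed here, and no coordinate was converted.

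Starts came from Ensembl release 115 on dm6 and sequences from the RefSeq Release 6 genome. Genes on Y were left out. A gene had a peak when a summit lay within 1 kb of any of its starts. Shares carry 95% Wilson intervals. Python 3.11.15, NumPy 2.4.6, SciPy 1.17.1 and matplotlib 3.10.9 were used, and the assignment of summits to genes was tested on simulated data. With 1 group and no replicated contrast, no p-value was computed.

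Named were the genes with a summit in the optimal, pooled or replicate 1 list, the 12 highest in replicate 3, the highest of each complex, both cytochrome c genes and 6 chain genes outside the symbols. The other genes named, the 7 core subunits and the intron sites were chosen after their values were seen. The members and lists were chosen with earlier results of these data known. Of the listed symbols, 1 was matched by synonym (Nc73EF, as Ogdh), and Twinkle and Gabpi were not matched. Alternatives were other windows, a q-value limit, as many peaks as replicate 1, genes of the pooled and optimal lists with a summit also in 1 replicate's list, and other motif windows.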

Additional observations from a re-analysis of the deposited data

How the results depend on the processing

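Of 62 alternatives, 43 kept the value within the interval of the share reported and 19 did not. In the replicate 3 list the chain genes stood at 33.7% within 2 kb, 2.17% at a q-value of at most 0.05 and 6.52% in the 2060 highest peaks. In the replicate 1 list they stood at 2.17% within 500 bp, against 5.00% of others, and 1.09% at that q-value, and in the pooled list at 1.09%. The optimal share was 0 within 500 bp, against 0.671%, since the Cyt-c-p summit lies farther from its start. The lists could not be called again without a replicate. Requiring a summit also in the list of the replicate kept, which can only lower a share, gave 4.35% to 8.70% for the pooled share and 1.09% for the optimal share. The order of chain genes and other genes turned in some alternatives. The optimal share was 1.09% against 0.895%, but 1.09% against 1.19% within 2 kb and 0 against 0.671% within 500 bp. The replicate 1 share was 5.43% against 6.64%, but 1.09% against 0.823% at the q-value limit and 7.58% against 6.64% without the duplicate copies. Complex I stood at 32.5% within 2 kb. In the 2060 highest peaks of replicate 3, complex I stood at 2.50%, II at 12.5%, III at 9.09% and IV at 6.25%. Without chromosome 4, an alternative chosen after seeing the data, the replicate 3 share was 21.1%, and the downstream-only element share of 56.5% was likewise added later. No paired analysis was possible because there is 1 group. The complexes hold 8 to 40 genes, and unknown depth and the unequal length of the lists limit every comparison between replicates.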

Other observations

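The lists held 31 to 36 peaks each on the mitochondrial chromosome. With so many peaks on a small genome, each of its 13 protein-coding genes lay within 1 kb of a summit in each of the 4 lists, which is no result about single genes. The highest mitochondrial signal was 10887 in the replicate 1 list, 22991 in the replicate 3 list, 28300 in the pooled list and 28300 in the optimal IDR list. What these signals represent was not tested, and no control library was analysed here.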
